A study of Mus musculus with 14 samples.

Results

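The experiment described here asked how a Poly I:C stimulus given a day earlier changed the transcripts present in macrophages 2 h after LPS, outside the cytokines and interferon-stimulated genes. It comprises 4 of the 14 libraries of the series: 2 libraries of macrophages kept for 24 h with 100 ng/mL Poly I:C and then given LPS for 2 h, called primed here, and 2 libraries kept with PBS for 24 h before the same LPS stimulus of 2 h, called unprimed. All cells were bone marrow-derived macrophages of male C57Bl6/J mice aged 6 to 12 weeks, grown in medium with 30% L929-conditioned medium as the source of the growth factor CSF-1 and plated on day 6. The dose of the second LPS stimulus is not given in the labels used here, which state 5 ng/mL for LPS as a first stimulus. The other 3 libraries at 2 h are given beside some results, untested: 2 that received Poly I:C and then PBS, and 1 that received PBS both times. Whether replicates are separate animals, cultures or extractions is not stated in the labels. The p-values therefore speak only to the spread between replicate libraries, which may be technical. That spread came from a fit of all 14 libraries, to which groups of 1 library add no spread. The estimate can understate the spread of the unprimed pair, whose replicates differed more.

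Poly I:C mimics the double-stranded RNA of viruses. It is sensed by TLR3 and by cytosolic RNA sensors, and it leads macrophages to secrete type I interferon. LPS of the bacterial outer membrane is sensed by TLR4, which signals through both the MyD88 and the TRIF adaptors. An earlier stimulus can leave macrophages with a raised or a lowered response to a later one, known as priming and tolerance.

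The table gives FPKM, fragments scaled by transcript length and library size, and the test used limma on log2(FPKM + 1). Fold changes below are log2 values, primed over unprimed, with their standard error (n = 2 libraries per group), and they understate the change of weakly expressed genes. Genome positions are those of the table's assembled loci, on GRCm38. The test covered 11977 named entries that reached 1 FPKM in 2 or more libraries, of which 3905 were higher and 3408 lower at a limma adjusted p under 0.05. The background for every count below was therefore 61.1% called, 32.6% higher and 28.5% lower, and the median over all tested entries was 0.05. A list near these shares is not set apart from other genes. Of 1485 listed genes with an entry of their own, 1106 passed the filter on low values, and a gene that passed only through the group in which it was high had to differ, so counts refer to tested members only.

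Replicates correlated across tested genes at r = 0.985 in primed and r = 0.974 in unprimed libraries, and 164 and 306 genes lay over 2-fold apart between replicates. Absolute depth is unknown, but the spacing of low values showed that 1 fragment was worth at most 1.96 times as much in one of these 4 libraries as in another. Summed FPKM was 875391 and 964258 in primed libraries, against 672392 and 589055 in unprimed libraries. Macrophage markers were all detected, at a summed 8303 and 8660 FPKM in primed libraries and 20640 and 16047 FPKM in unprimed libraries. Most of the unprimed sums came from the lysozyme gene Lyz2, at 16240 and 12369 FPKM, against 4086 and 4397 FPKM in primed libraries. The difference between the sums therefore mainly follows this gene. Of the 8 macrophage markers 5 were lower, Lyz2 among them, and 3 were higher, among them the Fc receptor gene Fcgr1. Markers of T cells, B cells, natural killer cells, erythroid cells and mast cells summed to at most 0.800 FPKM in any of the 4 libraries, with Cd3e and Ncr1 at 0 in all 4. Neutrophil markers summed to 0.501 and 1.07 FPKM in primed libraries and 2.15 and 2.11 FPKM in unprimed libraries, with S100a9 and Elane at 0. Stromal markers summed to 118 and 45.6 FPKM in primed and 27.6 and 24.1 FPKM in unprimed libraries, with 3 of 7 tested members higher. Dcn had 9.38 and 10.2 FPKM in primed and 0.172 and 0.281 FPKM in unprimed libraries. Col1a1 had 38.4 and 11.8 FPKM against 6.64 and 6.22 FPKM, and Col1a2 had 54.1 and 17.2 FPKM against 7.31 and 6.88 FPKM. Both collagen genes thus differed widely between the primed replicates. The other tested stromal markers were not called, and Lum stood at 0.0577 to 0.177 FPKM in the 4 libraries. Dendritic cell markers summed to 10.2 and 9.79 FPKM in primed and 3.41 and 2.85 FPKM in unprimed libraries, of which Xcr1 made up most of the primed level while Cd209a was at 0. Of the endothelial markers, Kdr stood at 31.2 and 29.9 FPKM in primed and 0.631 and 1.31 FPKM in unprimed libraries, while Tek and Emcn were at 0. The part of other cell types in the results was not tested, and in bulk RNA fewer cells of a type and less RNA per cell cannot be told apart.

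The 12 genes with the largest increases and the 12 with the largest decreases, on the log2(FPKM + 1) scale are shown in the plot of single libraries. Symbols on a list of cytokine, interferon-stimulated and antigen presentation genes were left out, a list that does not hold every interferon-inducible gene. These genes were chosen without overlap between the groups, and 77.6% of all tested entries had none.

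**Figure D1:**
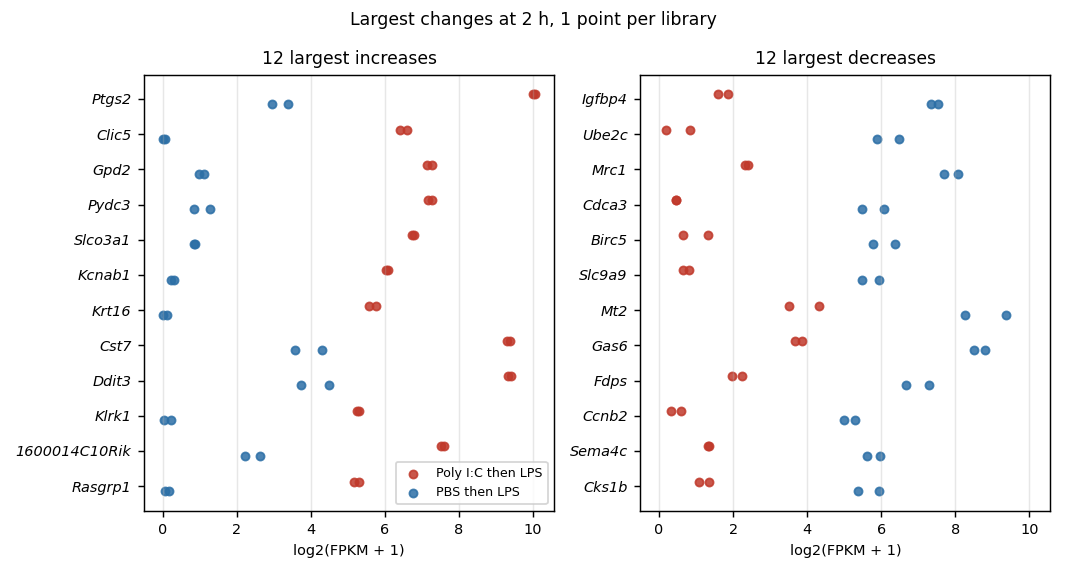
Level of the 12 largest increases (left) and the 12 largest decreases (right) at 2 h, as log2(FPKM + 1) on the horizontal axis, with 1 point per library. Red points are the 2 primed libraries and blue points the 2 unprimed libraries, which are apart because the genes were chosen without overlap between the groups.

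Among the increases, Gpd2 encodes the mitochondrial glycerol-3-phosphate dehydrogenase, which passes electrons from cytosolic NADH into the respiratory chain (chromosome 2, 57236227 to 57378551). It stood at 140.2 and 155 FPKM in primed libraries, against 1.17 and 0.980 FPKM in unprimed libraries. The change was 6.16 ± 0.14, limma adjusted p = 1.37e-09, and the level after Poly I:C and then PBS lay in between, at 37.4 and 38.9 FPKM. Slco3a1, an organic anion transporter (chromosome 7, 74275419 to 74554780), stood at 109 and 104 FPKM in primed libraries, against 0.792 and 0.840 FPKM in unprimed libraries (5.89 ± 0.12, limma adjusted p = 1.17e-09). Cst7, which encodes cystatin F, an inhibitor of lysosomal cysteine proteases, stood at 658 and 626 FPKM in primed libraries, against 18.9 and 10.98 FPKM in unprimed libraries (5.38 ± 0.22, limma adjusted p = 3.29e-08). After Poly I:C and then PBS the levels were 77.3 and 85.7 FPKM for Slco3a1 and 465 and 491 FPKM for Cst7.

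Several of the large increases were of genes near 0 without Poly I:C, for which no fold is given. Clic5, a chloride intracellular channel protein, stood at 96.4 and 83.8 FPKM in primed libraries, against 0.0494 and 0.0101 FPKM in unprimed libraries (limma adjusted p = 2.66e-09). Kcnab1, a cytosolic potassium channel beta subunit, stood at 66.98 and 64.7 FPKM in primed libraries, against 0.243 and 0.172 FPKM in unprimed libraries (limma adjusted p = 3.26e-09). Krt16, a keratin, and Rasgrp1, an exchange factor for Ras, were likewise present in primed libraries, at 46.2 and 53.2 FPKM and 34.7 and 38.4 FPKM, and at most 0.116 FPKM in unprimed libraries. Rasgrp1 was lower when Poly I:C was followed by PBS, at 8.92 and 8.70 FPKM. Klrk1, which encodes the receptor NKG2D, stood at 38.3 and 37.02 FPKM in primed libraries, against 0.161 and 0.0190 FPKM in unprimed libraries, and its assembled locus also holds Klrd1, a natural killer marker at no more than 0.307 FPKM in these libraries. Pydc3, of a family of near-identical interferon-inducible neighbours that could share reads, stood at 153 and 141 FPKM in primed libraries, against 1.42 and 0.789 FPKM in unprimed libraries.

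Ptgs2, the prostaglandin-forming cyclooxygenase, had the largest increase of the 12 on the log2(FPKM + 1) scale, at 6.85 ± 0.35. Ddit3, which encodes the stress factor CHOP, stood at 643 and 670.2 FPKM in primed libraries, against 21.6 and 12.4 FPKM in unprimed libraries (5.24 ± 0.20, limma adjusted p = 1.97e-08), at a locus that also holds Mars, Mbd6 and Dctn2. After Poly I:C and then PBS, without LPS, it stood at 633 and 695 FPKM. The uncharacterised coding gene 1600014C10Rik stood at 182 and 191 FPKM in primed libraries, against 5.13 and 3.65 FPKM in unprimed libraries, with 180.1 and 198 FPKM after Poly I:C and then PBS.

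Among the decreases, Igfbp4, a binding protein of insulin-like growth factors (chromosome 11, 99040028 to 99054392), stood at 2.02 and 2.66 FPKM in primed libraries, against 183 and 160.2 FPKM in unprimed libraries (-5.70 ± 0.18, limma adjusted p = 6.76e-09). Mrc1, the mannose receptor of alternatively activated macrophages (chromosome 2, 14229306 to 14332063), stood at 4.31 and 3.998 FPKM in primed libraries, against 205 and 267 FPKM in unprimed libraries (-5.51 ± 0.15, limma adjusted p = 4.12e-09). Gas6, the ligand of the TAM receptors that bind apoptotic cells, stood at 11.7 and 13.5 FPKM in primed libraries, against 446 and 365 FPKM in unprimed libraries (-4.90 ± 0.14, limma adjusted p = 4.36e-09). Slc9a9, an endosomal sodium-proton exchanger, stood at 0.552 and 0.734 FPKM in primed libraries, against 43.9 and 59.8 FPKM in unprimed libraries (-4.99 ± 0.22, limma adjusted p = 4.82e-08). Sema4c, a membrane semaphorin that binds plexin B2, stood at 1.56 and 1.51 FPKM in primed libraries, against 61.1 and 48.1 FPKM in unprimed libraries (-4.44 ± 0.21, limma adjusted p = 8.63e-08). Without LPS, the PBS-then-PBS library held 9.13 FPKM of Sema4c, below both unprimed libraries. Fdps, of the mevalonate pathway, stood at 2.93 and 3.71 FPKM in primed libraries, against 156 and 101 FPKM in unprimed libraries. The remaining decreases of the 12 were the division genes Ube2c, Cdca3, Birc5, Ccnb2 and Cks1b, and the metallothionein gene Mt2.

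Both the division genes and the metallothionein genes are known for short promoter elements, so 4 promoters are printed here from RefSeq on GRCm38.p6, from 250 bases before to 50 bases after the gene start, on the gene's strand. Promoters of genes expressed in mitosis often carry a cell cycle homology region, with the core TTTGAA, and CCAAT boxes, and both are in capitals on either strand in Ube2c (chr2:164769679-164769978, plus strand) and Cdca3 (chr6:124829926-124830225, plus strand). Metallothionein promoters carry metal response elements, here TGCACNC or TGCGCNC on either strand, in capitals in Mt1 (chr8:94178839-94179138, plus strand) and Mt2 (chr8:94172368-94172667, plus strand).
Ube2c: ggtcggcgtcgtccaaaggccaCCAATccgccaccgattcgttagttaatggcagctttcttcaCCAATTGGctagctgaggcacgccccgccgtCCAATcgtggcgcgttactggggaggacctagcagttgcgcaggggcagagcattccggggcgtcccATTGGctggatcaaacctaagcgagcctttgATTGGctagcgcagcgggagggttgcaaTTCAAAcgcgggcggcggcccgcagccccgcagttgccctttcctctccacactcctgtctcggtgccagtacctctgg
Cdca3: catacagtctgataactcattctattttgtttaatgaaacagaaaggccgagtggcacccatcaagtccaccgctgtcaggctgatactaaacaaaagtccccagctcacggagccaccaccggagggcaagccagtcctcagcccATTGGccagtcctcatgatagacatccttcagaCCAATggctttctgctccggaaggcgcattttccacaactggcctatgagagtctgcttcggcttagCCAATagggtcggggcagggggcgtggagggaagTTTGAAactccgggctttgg
Mt1: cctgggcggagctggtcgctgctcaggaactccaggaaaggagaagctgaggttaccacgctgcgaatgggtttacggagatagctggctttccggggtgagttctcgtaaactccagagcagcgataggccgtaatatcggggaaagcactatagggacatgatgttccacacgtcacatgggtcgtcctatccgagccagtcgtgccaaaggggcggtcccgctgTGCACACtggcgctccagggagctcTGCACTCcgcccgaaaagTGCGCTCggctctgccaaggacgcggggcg
Mt2: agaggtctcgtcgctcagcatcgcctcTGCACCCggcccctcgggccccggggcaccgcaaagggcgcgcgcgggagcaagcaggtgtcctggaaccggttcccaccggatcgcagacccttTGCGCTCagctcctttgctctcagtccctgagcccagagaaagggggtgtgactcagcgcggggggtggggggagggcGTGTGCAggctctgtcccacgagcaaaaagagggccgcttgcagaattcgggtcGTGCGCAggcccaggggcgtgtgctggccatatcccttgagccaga
Ube2c held 1 TTTGAA and 6 CCAAT, of which a pair overlaps, and Cdca3 held 1 TTTGAA and 3 CCAAT. Neither gene is on the spindle, kinetochore and cytokinesis list counted next. Of 45 tested spindle, kinetochore and cytokinesis genes, 37 had a promoter in the table, and TTTGAA was in 29 of these (78.4%), against 18.1% of the promoters of 27025 genes, 1 promoter each. CCAAT was in 25 of the 37 (67.6%), against 37.9% of all. Of 34 promoters of replication genes, 5 held TTTGAA (14.7%), a share below that of the spindle genes, and 22 held CCAAT (64.7%), a share close to theirs. Mt1 held 3 and Mt2 held 4 metal response elements, and 3 or more were in 2.0% of all promoters. These matches describe letters in a fixed window and not the binding of a factor.

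**Figure D2:**
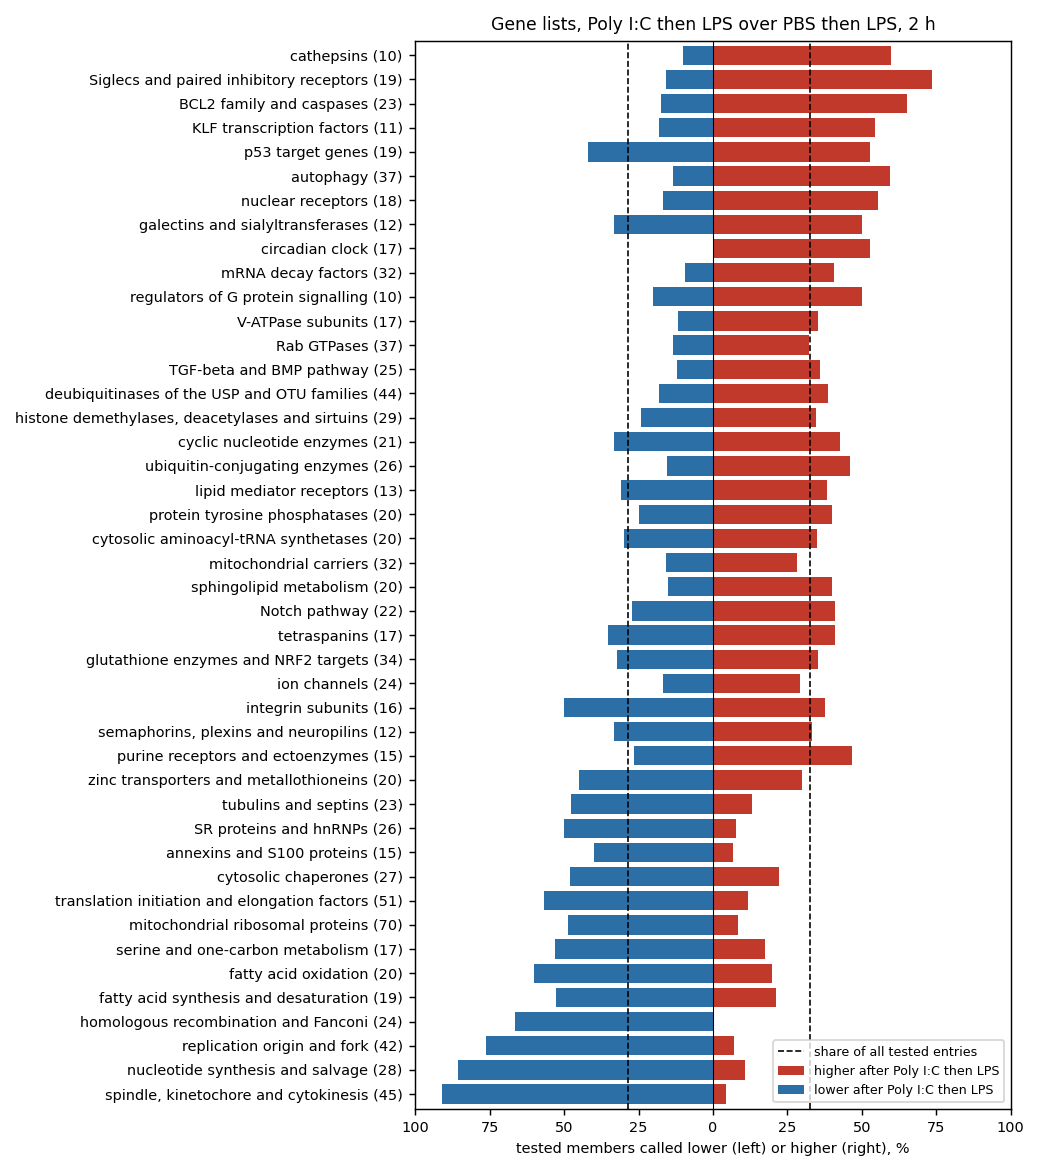
Share of tested members called higher (red, right) and lower (blue, left) in primed over unprimed libraries for 44 gene lists, with the number of tested members in brackets, sorted by median log2 fold change. Dashed lines mark the shares over all tested entries, 32.6% higher and 28.5% lower. The division, nucleotide and translation lists reach past the left line. The cathepsin, autophagy, paired receptor and BCL2 lists reach past the right line, and some lists, such as p53 targets, pass both.

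Most genes of cell division, from origin licensing to cytokinesis, were lower in primed cells. Of 45 tested spindle, kinetochore and cytokinesis genes, 41 were lower and 2 higher, with a median of -2.53. Cenpa, the histone H3 variant that marks centromeres (chromosome 5, 30666777 to 30674827), stood at 2.06 and 1.75 FPKM in primed libraries, against 64.8 and 46.3 FPKM in unprimed libraries (-4.27 ± 0.21, limma adjusted p = 9.21e-08). Ube2c, the ubiquitin-conjugating enzyme of the anaphase-promoting complex whose promoter is printed above, is not on this list. It stood at 0.798 and 0.137 FPKM in primed libraries, against 88.8 and 58.5 FPKM in unprimed libraries (-5.68 ± 0.31, limma adjusted p = 2.07e-07). Cdca3, which acts in mitotic entry and is not on the list either, stood at 0.381 and 0.365 FPKM in primed libraries, against 66.5 and 43.8 FPKM in unprimed libraries (-5.32 ± 0.19, limma adjusted p = 1.61e-08). On the list, Racgap1 and Prc1, which organise the central spindle, changed by -4.04 ± 0.23 and -3.97 ± 0.28. In the Poly I:C-then-PBS libraries Cenpa stood at 3.17 and 3.23 FPKM.

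Against this pattern, 2 spindle genes rose. Pttg1, securin, which holds separase inactive until anaphase, stood at 157 and 166 FPKM in primed libraries, against 42.4 and 24.8 FPKM in unprimed libraries (2.28 ± 0.20, limma adjusted p = 5.24e-06). Tpx2, which activates Aurora A on spindle microtubules, stood at 100.1 and 101 FPKM in primed libraries, against 23.97 and 25.5 FPKM in unprimed libraries (1.98 ± 0.13, limma adjusted p = 5.33e-07). Mad2l1, a spindle checkpoint protein, did not pass the test, at 37.7 and 41.02 FPKM in primed libraries, against 33.5 and 37.6 FPKM in unprimed libraries (0.15 ± 0.14, limma adjusted p = 0.389). Without LPS, however, Mad2l1 stood at 4.64 and 4.94 FPKM after Poly I:C, against 24.2 FPKM in the PBS-then-PBS library.

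Upstream of mitosis, 32 of 42 replication genes were lower and 3 higher (median -1.52). All 5 tested MCM helicase subunits, Mcm2 to Mcm6, were lower, by log2 changes from -3.12 to -1.51; this family was singled out after its values were seen. Mcm5 had 3.30 and 2.47 FPKM in primed and 34.6 and 30.6 FPKM in unprimed libraries. Uhrf1, which brings the maintenance DNA methyltransferase to replicated DNA, stood at 0.915 and 0.340 FPKM in primed libraries, against 12.3 and 16.1 FPKM in unprimed libraries (-3.23 ± 0.22, limma adjusted p = 8.35e-07). Pola2, a subunit of DNA polymerase alpha, went the other way, at 28.8 and 32.03 FPKM in primed libraries, against 14.8 and 12.4 FPKM in unprimed libraries (1.11 ± 0.16, limma adjusted p = 1.56e-04). Of 24 homologous recombination and Fanconi genes, 16 were lower and 0 higher (median -0.84).

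Of 28 genes of nucleotide synthesis and salvage, 24 were lower and 3 higher (median -1.68). Rrm1, the large subunit of ribonucleotide reductase, had 2.89 and 1.87 FPKM in primed and 39.3 and 40.7 FPKM in unprimed libraries (-3.62 ± 0.16, limma adjusted p = 4.60e-08). Its small subunit Rrm2 had 1.16 and 0.489 FPKM in primed and 18.8 and 25.4 FPKM in unprimed libraries (-3.67 ± 0.20, limma adjusted p = 2.01e-07). Tk1, the thymidine kinase of S phase, changed by -4.003 ± 0.32, at a locus shared with Syngr2 and Afmid. Dck, the deoxycytidine kinase that salvages deoxynucleosides, was higher instead, at 66.2 and 60.8 FPKM in primed libraries, against 14.6 and 17.3 FPKM in unprimed libraries (1.93 ± 0.14, limma adjusted p = 1.76e-06).

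One-carbon genes that feed these pathways split by enzyme, with 9 of 17 lower and 3 higher. Ahcy, which removes the methylation product S-adenosylhomocysteine, stood at 1.498 and 1.64 FPKM in primed libraries, against 10.3 and 13.7 FPKM in unprimed libraries, and the cytosolic Mthfd1 changed by -1.92 ± 0.21. The mitochondrial Mthfd2 was higher, at 47.98 and 55.9 FPKM in primed libraries, against 19.96 and 17.6 FPKM in unprimed libraries (1.42 ± 0.11, limma adjusted p = 2.61e-06).

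Genes of fatty acid synthesis and of fatty acid oxidation were both more often lower than higher. Among 19 fatty acid synthesis and desaturation genes, 10 were lower and 4 higher, and among 20 fatty acid oxidation genes, 12 were lower and 4 higher (medians -0.72 and -0.53). Fads2, a desaturase that makes polyunsaturated fatty acids, stood at 0.461 and 0.573 FPKM in primed libraries, against 25.4 and 28.2 FPKM in unprimed libraries (-4.20 ± 0.21, limma adjusted p = 1.02e-07). Fads1, which acts later in the same route, had 5.76 and 5.52 FPKM in primed and 28.3 and 30.1 FPKM in unprimed libraries (-2.18 ± 0.12, limma adjusted p = 2.13e-07). Fasn, fatty acid synthase, stood at 1.43 and 0.679 FPKM in primed libraries, against 15.4 and 11.7 FPKM in unprimed libraries (-2.84 ± 0.71, limma adjusted p = 0.00585). Acsl1, which couples fatty acids to coenzyme A, was higher at 335 and 349 FPKM in primed libraries, against 34.04 and 43.5 FPKM in unprimed libraries (3.12 ± 0.14, limma adjusted p = 4.85e-08). Of oxidation, the peroxisomal enzyme gene Hsd17b4 had 4.45 and 4.68 FPKM in primed and 38.9 and 35.5 FPKM in unprimed libraries (-2.78 ± 0.11, limma adjusted p = 3.23e-08). The mitochondrial Hadh changed by -2.36 ± 0.13. Cpt1a, which makes the carnitine esters that enter mitochondria, stood at 36.6 and 32.8 FPKM in primed libraries, against 9.78 and 12.9 FPKM in unprimed libraries (1.54 ± 0.14, limma adjusted p = 6.71e-06). Without LPS, Cpt1a stood at 38.5 and 37.7 FPKM after Poly I:C and 29.6 FPKM in the PBS-then-PBS library, above both unprimed libraries.

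Sphingolipid genes were higher in 8 of 20 cases and lower in 3, and paralogs went in opposite directions. Sphk1, a sphingosine kinase, stood at 2.05 and 2.95 FPKM in primed libraries, against 32.00 and 21.5 FPKM in unprimed libraries (-2.97 ± 0.23, limma adjusted p = 1.97e-06). Without LPS, Sphk1 stood at 0.619 and 0.418 FPKM after Poly I:C and 3.33 FPKM in the PBS-then-PBS library. Its paralog Sphk2 stood at 46.8 and 43.2 FPKM in primed libraries, against 17.5 and 13.6 FPKM in unprimed libraries (1.48 ± 0.15, limma adjusted p = 1.27e-05), at a locus shared with Dbp and Rpl18. The ceramide synthases split too, Cers6 changing by 2.34 ± 0.15 and Cers5 by -1.56 ± 0.17.

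Genes of protein synthesis were mostly lower or not called. Among 51 translation factors 29 were lower and 6 higher, among 70 mitochondrial ribosomal proteins 34 were lower and 6 higher, and among 27 cytosolic chaperones 13 were lower and 6 higher. Their medians were -0.51, -0.51 and -0.40. Unprimed replicate 1 lay above unprimed replicate 2 in 70 of the 70 mitochondrial ribosomal proteins, as in Mrpl23, a protein of the large subunit, at 9.58 and 9.77 FPKM in primed libraries, against 66.6 and 37.7 FPKM in unprimed libraries. Of these 70, 24 were lower without unprimed replicate 1 and 47 without unprimed replicate 2, and what sets the unprimed replicates apart was not tested. Eif3i, a subunit of the initiation factor eIF3, stood at 27.9 and 30.8 FPKM in primed libraries, against 114 and 76.2 FPKM in unprimed libraries (-1.64 ± 0.17, limma adjusted p = 1.99e-05), and 9 of 12 tested eIF3 subunits were lower and 1 higher. All 6 tested subunits of the chaperonin CCT, which folds actin and tubulin, were lower, by log2 changes from -1.23 to -0.84; both families were picked after their values were seen. Hspa1a, the heat-inducible Hsp70, was higher at 14.4 and 14.5 FPKM in primed libraries, against 5.76 and 3.56 FPKM in unprimed libraries (1.48 ± 0.21, limma adjusted p = 1.38e-04).

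Of 20 cytosolic aminoacyl-tRNA synthetases 7 were higher and 6 lower, close to the shares over all entries. Aars, Wars and Cars, which charge the tRNAs of alanine, tryptophan and cysteine, changed by 2.32 ± 0.13, 1.90 ± 0.12 and 1.35 ± 0.14, and Farsb, Vars and Farsa, for phenylalanine and valine, by -1.27 ± 0.13, -0.998 ± 0.18 and -0.92 ± 0.18. Aars had 121 and 129 FPKM in primed and 26.3 and 22.2 FPKM in unprimed libraries. Farsb had 7.60 and 9.40 FPKM in primed and 22.1 and 21.5 FPKM in unprimed libraries. Of 32 mitochondrial carriers 9 were higher and 5 lower, both shares below those over all entries. Slc25a22, a glutamate carrier, stood at 96.04 and 105 FPKM in primed libraries, against 17.8 and 11.5 FPKM in unprimed libraries (2.72 ± 0.18, limma adjusted p = 6.68e-07). Slc25a4, the ADP/ATP carrier of heart and muscle, stood at 6.66 and 5.38 FPKM in primed libraries, against 93.9 and 70.03 FPKM in unprimed libraries (-3.55 ± 0.16, limma adjusted p = 5.32e-08).

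**Figure D3:**
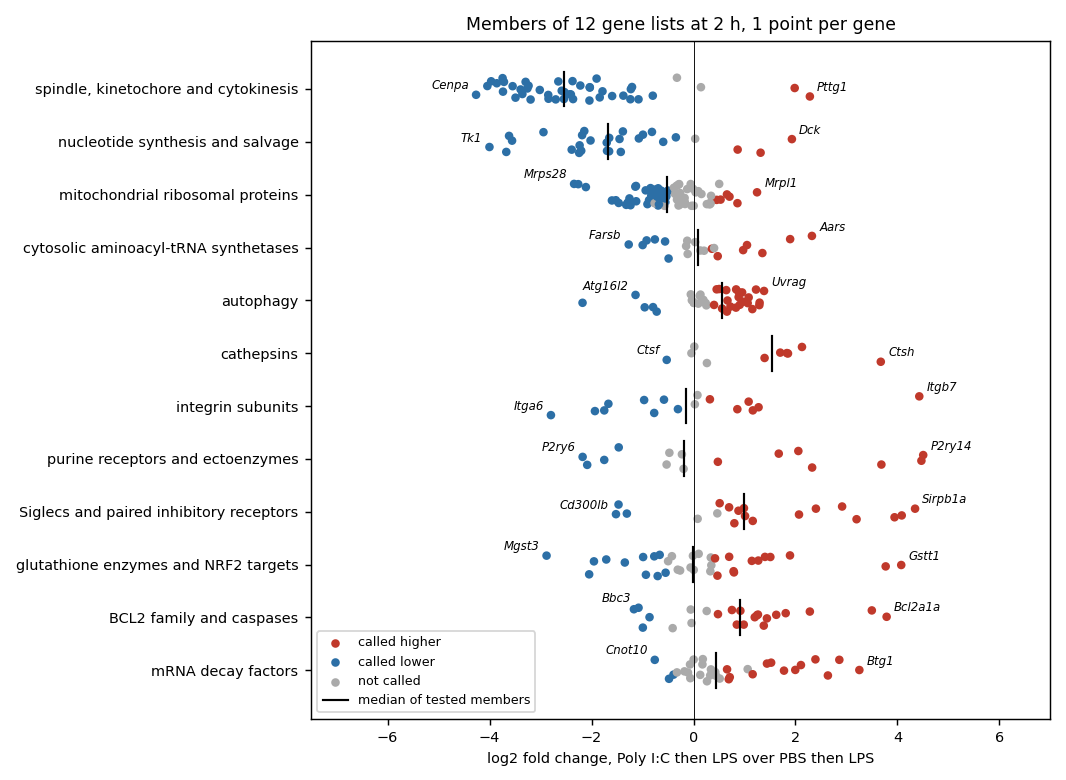
Log2 fold change of every tested member of 12 gene lists, primed over unprimed, with 1 point per gene, scattered vertically within a list for legibility, and a bar at the list's median. Red points were called higher, blue lower and grey not called; the genes with the most extreme named values are labelled, and Pttg1, Dck and Aars lie apart from lower members of their lists.

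Cathepsins and autophagy genes were more often higher than lower in primed cells. Of 10 tested cathepsins, the lysosomal proteases, 6 were higher and 1 lower (median 1.55). Ctsh (chromosome 9, 90054152 to 90076095) stood at 961 and 976 FPKM in primed libraries, against 85.6 and 65.7 FPKM in unprimed libraries (3.67 ± 0.13, limma adjusted p = 1.60e-08). Ctss, which trims the invariant chain in antigen presentation, stood at 5449 and 5484 FPKM in primed libraries, against 1416 and 1104 FPKM in unprimed libraries (2.13 ± 0.20, limma adjusted p = 8.36e-06), and Ctsc, which activates granule serine proteases, changed by 1.85 ± 0.14. Ctsb did not pass the test, at 3753 and 3697 FPKM in primed libraries, against 3267 and 2949.9 FPKM in unprimed libraries, except without unprimed replicate 1 (limma adjusted p = 0.0280). The Ctsb locus also holds Fdft1.

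Autophagy genes were higher in 22 of 37 cases and lower in 5 (median 0.56). Atg12, the ubiquitin-like protein joined to Atg5, stood at 36.3 and 36.2 FPKM in primed libraries, against 13.9 and 14.4 FPKM in unprimed libraries (1.30 ± 0.09, limma adjusted p = 1.46e-06). Atg13, of the kinase complex that starts autophagy, and Uvrag, of the class III phosphatidylinositol kinase complex, changed by 1.29 ± 0.12 and 1.38 ± 0.14. Ulk2, a kinase of the same starting complex as Atg13, was lower at 5.52 and 5.09 FPKM in primed libraries, against 8.70 and 11.3 FPKM in unprimed libraries (-0.79 ± 0.17, limma adjusted p = 0.00194). The proton pump of lysosomes, the V-ATPase, had 6 of 17 subunits higher, close to the share over all entries, and 2 lower (median 0.33). Its proteolipid subunit Atp6v0b stood at 959 and 1057 FPKM in primed libraries, against 514 and 377 FPKM in unprimed libraries, and its membrane subunits split, Atp6v0a2 changing by 1.08 ± 0.14 and Atp6v0a1 by -0.72 ± 0.11.

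Ubiquitin-conjugating enzymes were higher in 12 of 26 cases and lower in 4, and deubiquitinases of the USP and OTU families were higher in 17 of 44 and lower in 8. Ube2l6 and Usp18, which attach and remove the interferon-induced modifier ISG15, changed by 2.66 ± 0.17 and 4.76 ± 0.26. Usp25, a deubiquitinase of TRAF adaptors, stood at 85.4 and 82.6 FPKM in primed libraries, against 13.6 and 19.9 FPKM in unprimed libraries (2.28 ± 0.16, limma adjusted p = 1.18e-06). Usp5, which takes apart free ubiquitin chains, was lower at 21.2 and 21.1 FPKM in primed libraries, against 50.7 and 41.3 FPKM in unprimed libraries (-1.08 ± 0.11, limma adjusted p = 1.86e-05).

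Among genes of adhesion and cell shape, integrin subunits were called in 14 of 16 cases, 6 higher and 8 lower. Itgb7, the beta chain that pairs with alpha 4 and alpha E, stood at 45.2 and 52.2 FPKM in primed libraries, against 1.61 and 1.03 FPKM in unprimed libraries (4.43 ± 0.15, limma adjusted p = 8.59e-09). Its partner Itga4 changed by 1.28 ± 0.32, with 26.7 and 28.8 FPKM in primed libraries and 6.48 and 17.8 FPKM in unprimed libraries, which lay far apart. Itgal, the alpha chain of LFA-1, changed by 1.16 ± 0.13. Itga6, of the laminin receptor, had 2.65 and 2.53 FPKM in primed and 20.5 and 27.9 FPKM in unprimed libraries (-2.80 ± 0.20, limma adjusted p = 1.07e-06). Itgam, the alpha chain of the macrophage integrin Mac-1, had 30.3 and 30.5 FPKM in primed and 85.7 and 128 FPKM in unprimed libraries (-1.75 ± 0.17, limma adjusted p = 1.07e-05). When Poly I:C was followed by PBS, Itgb7 stood at 50.2 and 51.4 FPKM and Itga4 at 7.55 and 6.35 FPKM.

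Tubulins and septins were lower in 11 of 23 cases and higher in 3, with Tubb5, a main beta tubulin of dividing cells, at 105 and 93.4 FPKM in primed libraries, against 366 and 328 FPKM in unprimed libraries (-1.80 ± 0.11, limma adjusted p = 5.20e-07). Annexins and S100 proteins were lower in 6 of 15 cases and higher in 1, and 12 of 15 were lower without unprimed replicate 2. S100a4, a calcium-binding protein of motile cells, stood at 95.3 and 143 FPKM in primed libraries, against 1727 and 1081 FPKM in unprimed libraries (-3.54 ± 0.31, limma adjusted p = 5.06e-06). Anxa4, an annexin that binds membranes with calcium, was the higher one, with 405 and 397 FPKM in primed and 155 and 167 FPKM in unprimed libraries (1.31 ± 0.11, limma adjusted p = 3.78e-06). Tetraspanins were split 7 higher to 6 lower of 17, with Tspan13 at 2.10 ± 0.17 and Cd9 at -1.78 ± 0.13.

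Galectins and sialyltransferases divided in the same way, with 6 of 12 higher and 4 lower. Lgals9, a tandem-repeat galectin, had 585 and 579.7 FPKM in primed and 146 and 116 FPKM in unprimed libraries (2.15 ± 0.14, limma adjusted p = 5.65e-07). Lgals8, of the same type, changed by 2.68 ± 0.13. Lgals1, the prototype galectin, stood at 372 and 361 FPKM in primed libraries, against 2583 and 1659 FPKM in unprimed libraries (-2.50 ± 0.18, limma adjusted p = 1.31e-06). Lgals3 did not pass the test, at 3467 and 3629.9 FPKM in primed libraries, against 4479.7 and 3069.6 FPKM in unprimed libraries (-0.06 ± 0.18, limma adjusted p = 0.778), and without unprimed replicate 2 it was called lower (-0.34, limma adjusted p = 0.0262), while without unprimed replicate 1 the direction turned (0.21, limma adjusted p = 0.140). St3gal5, which makes the ganglioside GM3, and St6gal1, which adds sialic acid to N-glycans, changed by 2.33 ± 0.12 and -2.24 ± 0.15.

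Rab GTPases of vesicle traffic were higher in 12 of 37 cases and lower in 5. The share higher was close to that over all entries and the share lower was below it. Rab20 and Rab32 changed by 1.79 ± 0.19 and 1.48 ± 0.10 and Rab34 by -1.97 ± 0.18.

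Paired receptors of the Siglec, Trem, Cd300 and Sirp families were called in 17 of 19 cases, 14 higher and 3 lower (median 0.99). Cd300lf, an inhibitory receptor for phospholipids and sphingomyelin (chromosome 11, 115091431 to 115162236), stood at 160.4 and 175 FPKM in primed libraries, against 9.57 and 10.4 FPKM in unprimed libraries (3.94 ± 0.13, limma adjusted p = 8.57e-09). Treml2 stood at 23.5 and 22.03 FPKM in primed libraries, against 0.412 and 0.390 FPKM in unprimed libraries (4.08 ± 0.15, limma adjusted p = 1.95e-08). Sirpb1a, of a family with near-identical members that could share reads, had 21.1 and 29.7 FPKM in primed and 0.375 and 0.192 FPKM in unprimed libraries. Trem2, the lipid receptor of tissue macrophages, was lower at 245 and 249 FPKM in primed libraries, against 840.3 and 561 FPKM in unprimed libraries (-1.47 ± 0.19, limma adjusted p = 6.93e-05), and so were Cd33 and the activating Cd300lb, with changes of -1.31 ± 0.15 and -1.52 ± 0.20. After Poly I:C and then PBS, Cd300lf stood at 174 and 180.4 FPKM and Treml2 at 22.8 and 23.6 FPKM.

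Purine receptors and ectoenzymes were higher in 7 of 15 cases and lower in 4. P2ry14, a receptor of UDP-glucose, stood at 69.4 and 70.3 FPKM in primed libraries, against 1.98 and 2.27 FPKM in unprimed libraries (4.51 ± 0.18, limma adjusted p = 2.80e-08). P2ry13, a receptor of ADP, stood at 55.5 and 62.9 FPKM in primed libraries, against 1.12 and 2.47 FPKM in unprimed libraries (4.47 ± 0.22, limma adjusted p = 1.04e-07), and both genes share 1 assembled locus with Med12l, Gpr171 and P2ry12. P2ry6, the UDP receptor, was lower, with 41.4 and 48.1 FPKM in primed and 219 and 192 FPKM in unprimed libraries (-2.18 ± 0.12, limma adjusted p = 2.21e-07). P2ry2, the receptor of ATP and UTP, was lower as well (-1.75 ± 0.16, limma adjusted p = 7.27e-06). Adora2a, an adenosine receptor that raises cyclic AMP (chromosome 10, 75314928 to 75334788), stood at 80.2 and 95.02 FPKM in primed libraries, against 7.75 and 4.39 FPKM in unprimed libraries (3.68 ± 0.29, limma adjusted p = 2.46e-06). Adk, which removes adenosine by phosphorylation, was lower at 5.17 and 8.21 FPKM in primed libraries, against 27.4 and 35.02 FPKM in unprimed libraries (-2.09 ± 0.20, limma adjusted p = 9.17e-06).

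**Figure D4:**
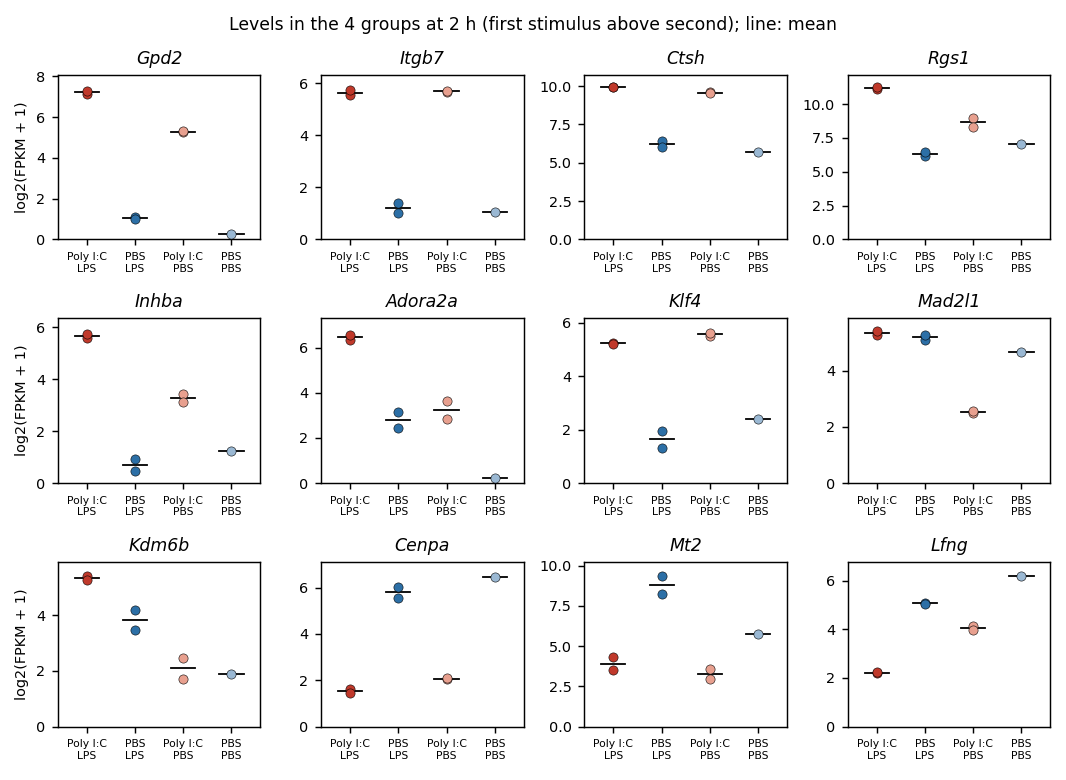
Level of 12 genes in the 4 groups of the 2 h time as log2(FPKM + 1), with 1 point per library and a line at the mean; the PBS-then-PBS group has 1 library. The means of Itgb7, Klf4 and Cenpa lay within 1 log2 unit of each other in both Poly I:C groups, whereas Inhba, Rgs1, Adora2a and Kdm6b were highest where Poly I:C was followed by LPS.

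Regulators of G protein signalling, which shorten signals of such receptors, were higher in 5 of 10 cases and lower in 2. Rgs1 (chromosome 1, 144243972 to 144249242) stood at 2206 and 2412 FPKM in primed libraries, against 71.4 and 87.7 FPKM in unprimed libraries (4.85 ± 0.21, limma adjusted p = 4.25e-08). Rgs3 stood at 181 and 189.7 FPKM in primed libraries, against 9.24 and 6.96 FPKM in unprimed libraries, and Rgs2 changed by 2.43 ± 0.21. Rgs1 without LPS stood at 511 and 318 FPKM after Poly I:C and 134 FPKM after PBS. Rgs2 had 61.98 and 56.8 FPKM in primed and 9.97 and 10.4 FPKM in unprimed libraries. Without LPS, Rgs2 stood at 47.9 and 59.8 FPKM after Poly I:C and 74.2 FPKM after PBS, above the primed libraries. Rgs18 was lower at 1.79 and 1.43 FPKM in primed libraries, against 6.37 and 8.80 FPKM in unprimed libraries (-1.71 ± 0.20, limma adjusted p = 3.49e-05). Cyclic nucleotide enzymes were higher in 9 of 21 cases and lower in 7, with the cAMP phosphodiesterase Pde7b at 36.2 and 31.1 FPKM in primed libraries, against 3.16 and 3.96 FPKM in unprimed libraries, and with Adcy7, an adenylate cyclase of leukocytes, and Prkacb, a catalytic subunit of protein kinase A, changing by -1.16 ± 0.14 and -1.85 ± 0.16. Lipid mediator receptors were higher in 5 of 13 cases and lower in 4, and higher in 3 without either primed replicate or without unprimed replicate 1. Lpar1, a receptor of lysophosphatidic acid, stood at 17.5 and 24.1 FPKM in primed libraries, against 1.60 and 1.32 FPKM in unprimed libraries (3.13 ± 0.31, limma adjusted p = 1.22e-05). Gpr183, the oxysterol receptor EBI2, had 0.550 and 0.674 FPKM in primed and 4.48 and 5.53 FPKM in unprimed libraries (-1.89 ± 0.16, limma adjusted p = 4.10e-06), at a locus shared with Ubac2 and Gpr18.

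Of 127 listed ion channels with an entry 24 passed the filter on low values, and of these 7 were higher and 4 lower. Both shares were below those over all entries. Besides Clic5 and Kcnab1, Kcnj2, an inward rectifier of potassium, stood at 10.8 and 8.83 FPKM in primed libraries, against 0.288 and 0.674 FPKM in unprimed libraries (2.87 ± 0.20, limma adjusted p = 1.14e-06). Kcnk13, a leak channel of the same ion, was lower at 5.90 and 6.28 FPKM in primed libraries, against 35.95 and 33.7 FPKM in unprimed libraries (-2.34 ± 0.12, limma adjusted p = 1.04e-07). Protein tyrosine phosphatases were higher in 8 of 20 cases and lower in 5. Ptprc, which encodes CD45, had 199.6 and 191 FPKM in primed and 49.1 and 82.6 FPKM in unprimed libraries (1.60 ± 0.20, limma adjusted p = 6.50e-05), and Ptpn6, which encodes SHP-1, changed by 1.24 ± 0.10. Semaphorins, plexins and neuropilins were split 4 to 4 of 12, close to the shares over all entries, with Sema4c the lowest.

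Of 25 TGF-beta and BMP genes, 9 were higher, close to the share over all entries, and 3 lower. Inhba, the subunit of activin A (chromosome 13, 16002393 to 16031788), stood at 46.6 and 51.8 FPKM in primed libraries, against 0.366 and 0.895 FPKM in unprimed libraries (4.96 ± 0.23, limma adjusted p = 7.48e-08). Its level after Poly I:C without LPS was 9.80 and 7.68 FPKM. Tgif1 and Skil, corepressors of SMAD proteins, changed by 2.63 ± 0.13 and 1.73 ± 0.27, while the receptor gene Tgfbr2 changed by -0.97 ± 0.14. Of 22 Notch pathway genes, 9 were higher and 6 lower. Jag1, a Notch ligand, stood at 31.9 and 36.6 FPKM in primed libraries, against 10.2 and 17.7 FPKM in unprimed libraries (1.28 ± 0.25, limma adjusted p = 0.00135). Notch1 had 2.05 and 2.85 FPKM in primed and 14.03 and 12.3 FPKM in unprimed libraries (-2.04 ± 0.17, limma adjusted p = 3.40e-06), at a locus that also holds Sec16a. Lfng, the glycosyltransferase that modifies Notch receptors, had 3.57 and 3.69 FPKM in primed and 33.2 and 31.9 FPKM in unprimed libraries (-2.86 ± 0.13, limma adjusted p = 4.85e-08).

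KLF transcription factors were higher in 6 of 11 cases and lower in 2 (median 0.73). Klf4, a factor of monocyte differentiation (chromosome 4, 55527143 to 55532466), stood at 37.02 and 36.1 FPKM in primed libraries, against 1.504 and 2.90 FPKM in unprimed libraries (3.59 ± 0.20, limma adjusted p = 1.96e-07), with 45.02 and 48.1 FPKM after Poly I:C and then PBS. Klf6 changed by 2.57 ± 0.19, and Klf13 and Klf16 by -1.10 ± 0.12 and -1.78 ± 0.20. Nuclear receptors were higher in 10 of 18 cases and lower in 3 (median 0.56). Nr4a1, the early-response orphan receptor Nur77, stood at 42.7 and 38.04 FPKM in primed libraries, against 3.15 and 3.75 FPKM in unprimed libraries (3.22 ± 0.21, limma adjusted p = 7.66e-07). Nr3c1, the glucocorticoid receptor, stood at 46.00 and 39.5 FPKM in primed libraries, against 7.26 and 14.7 FPKM in unprimed libraries (1.94 ± 0.26, limma adjusted p = 1.14e-04), and Rara, a retinoic acid receptor, changed by -1.12 ± 0.14.

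Clock genes were higher in 9 of 17 cases and lower in 0, and higher in 5 without either primed replicate or without unprimed replicate 1. Nr1d2, which encodes the repressor REV-ERB beta, stood at 19.3 and 17.9 FPKM in primed libraries, against 4.42 and 8.85 FPKM in unprimed libraries (1.42 ± 0.24, limma adjusted p = 4.74e-04). Histone demethylases, deacetylases and sirtuins were close to the background, with 10 of 29 higher and 7 lower. Kdm6b, the H3K27 demethylase JMJD3, stood at 41.7 and 38.1 FPKM in primed libraries, against 10.1 and 17.2 FPKM in unprimed libraries (1.52 ± 0.30, limma adjusted p = 0.0013), and without LPS at 4.51 and 2.31 FPKM after Poly I:C. Sirt1, an NAD-dependent deacetylase, had 14.1 and 15.2 FPKM in primed and 3.30 and 6.15 FPKM in unprimed libraries, a change of 1.499 ± 0.27. Hdac2, a class I deacetylase, had 6.11 and 5.83 FPKM in primed and 21.2 and 19.9 FPKM in unprimed libraries, a change of -1.63 ± 0.14.

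SR proteins and hnRNPs, which act in splicing, were lower in 13 of 26 cases and higher in 2 (median -0.32), with Hnrnpa1 at 54.97 and 58.1 FPKM in primed libraries, against 167 and 158 FPKM in unprimed libraries (-1.51 ± 0.11, limma adjusted p = 1.61e-06). Genes of mRNA decay were higher in 13 of 32 cases and lower in 3 (median 0.43), and 21 of 32 were higher without unprimed replicate 2. Btg1, an antiproliferative protein that recruits the CCR4-NOT deadenylase, had 307 and 283 FPKM in primed and 28.4 and 31.7 FPKM in unprimed libraries (3.25 ± 0.12, limma adjusted p = 1.77e-08). Its paralog Btg2 had 39.4 and 37.6 FPKM in primed and 4.21 and 4.67 FPKM in unprimed libraries (2.86 ± 0.19, limma adjusted p = 7.03e-07). Zc3h12c, of the Regnase family of endonucleases, stood at 52.2 and 44.8 FPKM in primed libraries, against 4.83 and 9.82 FPKM in unprimed libraries (2.64 ± 0.35, limma adjusted p = 9.79e-05).

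Genes of the BCL2 family and caspases were higher in 15 of 23 cases and lower in 4 (median 0.92), on both the protective and the lethal side. Bcl2a1a, a protective member with near-identical copies that could share reads, stood at 305 and 322 FPKM in primed libraries, against 26.03 and 18.2 FPKM in unprimed libraries (3.79 ± 0.19, limma adjusted p = 9.76e-08). Pmaip1, the lethal BH3-only protein Noxa (chromosome 18, 66458604 to 66465552), stood at 24.02 and 21.7 FPKM in primed libraries, against 0.885 and 1.36 FPKM in unprimed libraries (3.50 ± 0.21, limma adjusted p = 3.25e-07). Bcl2l1, which encodes the protective BCL-XL, was lower, with 54.6 and 63.9 FPKM in primed and 123 and 115 FPKM in unprimed libraries (-0.99 ± 0.14, limma adjusted p = 1.49e-04). Bbc3, which encodes the lethal PUMA, had 4.81 and 4.77 FPKM in primed and 12.6 and 10.01 FPKM in unprimed libraries (-1.08 ± 0.16, limma adjusted p = 1.84e-04).

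Target genes of p53 were called in 18 of 19 cases but in both directions, 10 higher and 8 lower. Gadd45a stood at 116 and 134 FPKM in primed libraries, against 10.1 and 9.81 FPKM in unprimed libraries (3.53 ± 0.20, limma adjusted p = 2.83e-07). The sestrins, stress-induced inhibitors of mTORC1, were opposed. Sesn2 had 22.9 and 19.5 FPKM in primed and 1.88 and 1.72 FPKM in unprimed libraries (2.98 ± 0.12, limma adjusted p = 3.46e-08). Sesn1 had 0.723 and 0.588 FPKM in primed and 5.35 and 6.83 FPKM in unprimed libraries (-2.09 ± 0.24, limma adjusted p = 4.07e-05).

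Of 34 glutathione enzymes and NRF2 targets, 12 were higher and 11 lower, close to the shares over all entries. Within them all 3 tested glutathione transferases of the theta class were higher. Gstt1 had 31.3 and 28.4 FPKM in primed and 0.946 and 0.722 FPKM in unprimed libraries (4.07 ± 0.15, limma adjusted p = 1.60e-08), and Gstt4 had 16.1 and 15.6 FPKM in primed and 0.222 and 0.249 FPKM in unprimed libraries. Of 4 tested transferases of the mu class, 2 were higher and 1 lower; both classes were singled out after their values were seen, and their members could share reads. Mgst3, a membrane-bound transferase, was lower, with 4.13 and 7.19 FPKM in primed and 59.3 and 36.9 FPKM in unprimed libraries (-2.88 ± 0.26, limma adjusted p = 5.86e-06). Cat, catalase, had 19.4 and 22.6 FPKM in primed and 79.4 and 101 FPKM in unprimed libraries (-2.05 ± 0.16, limma adjusted p = 2.11e-06).

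Zinc transporters and metallothioneins were lower in 9 of 20 cases and higher in 6. Mt1 and Mt2 encode metallothioneins, small proteins that bind zinc and copper, and their promoters are printed above. Mt1 had 43.8 and 47.8 FPKM in primed and 869.7 and 431 FPKM in unprimed libraries. Mt2 had 10.3 and 19.02 FPKM in primed and 656 and 304 FPKM in unprimed libraries. They changed by -3.71 ± 0.26 and -4.90 ± 0.45 (limma adjusted p = 1.17e-06 and 7.67e-06), and unprimed replicate 1 held over 2-fold as much of each as replicate 2. The PBS-then-PBS library held 274 FPKM of Mt1 and 53.9 FPKM of Mt2, and the Poly I:C-then-PBS libraries held 36.1 and 41.9 FPKM and 6.71 and 11.01 FPKM. Slc39a8, the zinc importer ZIP8, was lower at 1.28 and 1.08 FPKM in primed libraries, against 7.78 and 9.62 FPKM in unprimed libraries (-2.15 ± 0.18, limma adjusted p = 3.53e-06). Mtf1, the factor that binds metal response elements, was higher by 0.55 ± 0.19, at 8.79 and 14.03 FPKM in primed libraries, against 7.74 and 6.81 FPKM in unprimed libraries. It did not pass without primed replicate 2 (limma adjusted p = 0.284) or without unprimed replicate 2 (limma adjusted p = 0.113).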

How the data were processed

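Polyadenylated RNA of 14 macrophage libraries was sequenced in paired reads of 76 bases from a stranded kit, per the labels. The deposited table holds FPKM made by the authors with TopHat2, Cufflinks and Cuffnorm, per the submitters' processing notes; versions, scaling and use of strand are not given in the sources used here. Those notes name build mm9, but the locus of 33796 entries, out of 33853 with a namesake in GENCODE M21, overlaps the GRCm38 position of that gene, so coordinates are given as GRCm38. Among its 39721 entries, 1859 have no name and 1066 have several. Fragment counts are not in the table, so depth is unknown in absolute terms and counting intervals are not possible. The worth of 1 fragment, from low values, ranged 3.08-fold over the 14 libraries, with 91 of 91 pairs within 0.1 log2 of the fitted values.

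Groups followed the labels. The 11977 named entries that reached 1 FPKM in 2 or more libraries were fitted as log2(FPKM + 1) with limma 3.58.1 in R 4.3.3, with 1 mean per group over all 14 libraries, an intensity trend and 6 residual degrees of freedom, and adjusted by Benjamini-Hochberg over all entries at 0.05, 2-sided. A simulation of this comparison on 11977 genes gave a change to 200 of them. It recovered 85% of doublings or halvings (log2 1) and 97% of log2 2 changes, with 3.7% false calls. In the data, 7313 of 11977 entries were called. Replicates also differed more in unprimed than in primed libraries, by a median absolute log2 difference of 0.290 against 0.135. The simulated shares therefore cannot stand for the share of changes found, or of false calls, in the data.

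The members and the 45 gene lists were chosen with earlier results of these data known. Symbols without an entry of their own are not analysed here, and 1 list and some genes under the rule below are not reported here. Named genes are the 12 largest increases and 12 largest decreases with a mean of at least 5 FPKM in a group, no overlap between groups and no symbol on a list of cytokine, interferon-stimulated and antigen presentation genes, and up to 3 members per list in each direction and its highest member not called. Of 157 genes named under this rule, 28 had another coding gene name at their assembled locus, where reads could be split, some with more neighbours than given here: besides those named with a result, Ube2c with Tnnc2, Gas6 with Tmem255b, Prc1 with Rccd1, Cers5 with Lima1, Aars with Ddx19b and Exosc6, Wars with Wdr25, Farsb with Sgpp2, Itga4 with Cerkl, Cd300lf with Rab37, Lgals8 with Heatr1, Bbc3 with Ccdc9, Mtf1 with Yrdc, Bcl2a1a with Mthfsl, Klf13 with E030018B13Rik, Fdps with Gm43738, Hspa1a with Gm20481, S100a4 with Gm42674 and Itgam with Gm49368. Pydc3 is counted among the 28 through Ifi208. It has no GENCODE M21 gene of its own name and no other entry at its locus, so both names may stand for the same gene. Python 3.11.15, numpy 2.4.6, pandas 2.3.3 and matplotlib 3.10.9 were used. Alternatives were no intensity trend, scaling by median ratios, another pseudocount (0.1), omission of the low-value filter, the 2 h libraries alone, a replicate term, leaving out each replicate and, chosen after seeing the data, crossed replicate numbers, group weights and protein-coding entries alone.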

Additional observations from a re-analysis of the deposited data

How the results depend on the processing

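Of 45 list counts and the counts over all genes, every count stayed within 1.5 times its value without an intensity trend, with scaling by median ratios, with a pseudocount of 0.1, under the replicate block, the crossed numbers and protein-coding entries alone. Genes called higher and lower were 3827 and 3334 with the replicate block, 3271 and 2777 with group weights, and 3366 to 3956 and 2817 to 3566 when a replicate was left out. The labels number replicates but pair none, and deviations of like-numbered libraries of the compared groups correlated at -0.127. The block is given as an alternative, and it changed no list by over 1.5 times. With the numbers crossed, 3937 genes were higher and 3449 lower.

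Without the filter 7 semaphorin, plexin and neuropilin genes and 11 ion channels were higher. Lipid mediator receptors called higher numbered 2 in the 2 h libraries alone, 3 with group weights, and 3 to 5 when a replicate was left out. Clock genes called higher numbered 5 with group weights and 5 to 10 when a replicate was left out. Leaving out a replicate gave 6 to 12 annexin and S100 genes lower and 12 to 21 mRNA decay genes higher. Of 157 named genes, Lgals3 ranged from -0.34 to 0.21 when a replicate was left out, Mtf1 lost its call in 5 alternatives, and Ctsb gained one in 1. The cause of these shifts was not tested. With 1 library left out of a group, the lone library is assumed to vary like the other groups. Depth in fragments is unknown, which limits the precision of genes at a few FPKM by an unknown amount.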
